A study of Mus musculus with 6 samples.

Results

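The intercalated disc joins heart muscle cells end to end, and 10 genes of its adhesive and anchoring parts were followed in mouse hearts with and without Arrdc4. They were chosen by symbol: Dsp, Pkp2, Jup, Dsg2, Dsc2, Cdh2, Ctnna3, Tjp1, Des and Synm. All 10 were matched to 1 Ensembl identifier each among the 49315 rows of the count table, and all 10 were among the 14508 genes with enough reads to be tested. RNA was sequenced from 3 hearts with an ARRDC4 knock-out made by CRISPR-Cas9 and from 3 wild-type hearts, all of the C57BL/6 background, with 1 library per heart. The labels give the tissue as heart, and they do not give the chamber, the age, the sex, the edited part of Arrdc4 or the number of founder lines. Arrdc4 encodes an alpha-arrestin, an adaptor that brings ubiquitin ligases to other proteins.

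Desmosomes hold neighbouring heart muscle cells together under load. Cadherins of the desmosome cross the gap between the cells, plaque proteins bind their tails, and desmoplakin ties the plaque to desmin filaments inside the cell. In the heart these parts mix with those of the adherens junction, where N-cadherin is linked through catenins to actin. In people, inherited mutations of desmosomal genes cause arrhythmogenic cardiomyopathy.

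The members lie on GRCm38 chromosomes 1 (Des), 7 (Synm and Tjp1), 10 (Ctnna3), 11 (Jup), 13 (Dsp), 16 (Pkp2) and 18 (Dsg2, Dsc2 and Cdh2). Synm is the member nearest to the edited gene, with 977 kb between the annotated ends of Synm (67730160 to 67759742, minus strand) and Arrdc4 (68736995 to 68749241, minus strand). The exons of 4 members overlap exons on the opposite strand, by 499 bp for Dsp, 330 bp for Dsg2 and 220 bp for Des, and for Synm by 426 bp with one gene and 84 bp with Ttc23. The strand setting of the counting is not given in the sources used here, so reads from these stretches cannot be assigned to a strand. The 250 bases before the start are shown for 4 members. Dsp and Jup are plaque genes whose levels differed widely between hearts, Des is the most abundant member and differed little, and Synm is the member nearest to Arrdc4. The sequences are RefSeq's on GRCm38.p6 and run 5′ to 3′ on the strand of the gene, and capitals mark each GGGCGG, the GC box, on either strand.
Dsp upstream, GRCm38.p6 chr13:38151044-38151293, plus strand: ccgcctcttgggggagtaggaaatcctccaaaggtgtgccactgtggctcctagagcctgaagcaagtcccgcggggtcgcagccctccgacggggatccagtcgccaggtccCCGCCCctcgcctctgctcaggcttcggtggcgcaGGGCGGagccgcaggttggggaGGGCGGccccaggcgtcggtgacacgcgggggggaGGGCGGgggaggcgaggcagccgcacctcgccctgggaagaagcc
Jup upstream, GRCm38.p6 chr11:100397791-100398040, minus strand: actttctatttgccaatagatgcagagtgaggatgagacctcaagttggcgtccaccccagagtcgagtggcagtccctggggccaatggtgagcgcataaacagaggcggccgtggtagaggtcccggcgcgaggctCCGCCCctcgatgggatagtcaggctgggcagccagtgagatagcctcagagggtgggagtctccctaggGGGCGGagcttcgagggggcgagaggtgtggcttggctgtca
Des upstream, GRCm38.p6 chr1:75360042-75360291, plus strand: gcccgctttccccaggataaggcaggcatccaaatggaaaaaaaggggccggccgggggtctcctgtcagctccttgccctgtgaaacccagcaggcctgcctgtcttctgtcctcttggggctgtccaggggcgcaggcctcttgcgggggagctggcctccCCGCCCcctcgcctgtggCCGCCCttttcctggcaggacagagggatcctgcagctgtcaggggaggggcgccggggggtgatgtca
Synm upstream, GRCm38.p6 chr7:67759743-67759992, minus strand: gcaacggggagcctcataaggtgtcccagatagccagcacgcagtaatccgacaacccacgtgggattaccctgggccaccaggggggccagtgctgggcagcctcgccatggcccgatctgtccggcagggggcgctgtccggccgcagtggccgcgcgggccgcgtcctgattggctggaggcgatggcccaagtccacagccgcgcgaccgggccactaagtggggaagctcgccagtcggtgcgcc
The GC box occurred 4 times before Dsp, 2 times before Jup, 2 times before Des and 0 times before Synm, and 32.7% of the 32851 promoter windows in the table hold it at least once. TATAAA, searched on both strands like every motif here, was found in none of the 4 and in 12.4% of all windows. CCAAT occurred 2 times before Jup and 1 time before Synm, and in 33.8% of all windows. The E-box CANNTG occurred 2 times before Des and 1 time before Synm, and in 66.2% of all windows. CATTCC, the M-CAT element of muscle genes, was found in none of the 4 and in 12.6% of all windows. None of these motifs overlapped a capital run in the 4 windows. Guanine and cytosine made up 72.4% of the Dsp window, 62% of that of Jup, 67.2% of that of Des and 70% of that of Synm.

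Read totals were 31529317 to 41036626 counts in knockout hearts and 29974501 to 37518160 in wild-type hearts. Levels are in CPM, the count divided by the TMM-scaled library size. Arrdc4 had 0.117, 0.0345 and 0.0524 CPM in knockout replicates 1 to 3, against 11.0, 8.17 and 8.39 CPM in wild-type replicates 1 to 3. Its log2 fold change was -6.93 (SE 0.45) and it passed the edgeR quasi-likelihood test with an adjusted p of 0.00226. Without knockout replicate 3 its log2 fold change was -6.75 and its adjusted p was 0.0519 in edgeR. Heart muscle genes matched the tissue label: 10 markers summed to 71060 to 82801 CPM in knockout hearts and 72903 to 81225 CPM in wild-type hearts. Knockout replicate 2 and wild-type replicate 3 stood apart from the other 4 hearts, at -43.8 and -42.4 on a first principal component that held 58.9% of the variance, where the others lay between -1.88 and 38.3. The labels name no batch, and results that rest on these 2 libraries are given with and without them.

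Desmin was the most abundant member for its length and synemin the least. For this order, levels were divided by exon length and are given as RPKM over all 6 hearts. Des, the intermediate filament protein of muscle, had a median of 500.5 RPKM (lowest 450.3, highest 570.1). Dsp encodes desmoplakin, the plaque protein that holds those filaments, and followed with a median of 112 RPKM (62.9 to 143). Cdh2 had a median of 35.4 RPKM, Jup of 37.6 RPKM and Pkp2 of 27.8 RPKM. Cdh2 exceeded Jup in 4 of 6 hearts and Jup exceeded Pkp2 in 4 of 6, so these 3 did not keep their order. Dsg2, with a median of 10.8 RPKM, lay above Tjp1 (9.46 RPKM) in 6 of 6 hearts, and Tjp1 lay above Dsc2 (7.79 RPKM) in 4 of 6. Ctnna3 at 3.65 RPKM and Synm at 1.02 RPKM came last in 6 of 6 hearts. Together the 10 genes took 0.423%, 0.275% and 0.426% of the counts in knockout replicates 1 to 3, against 0.405%, 0.451% and 0.291% in wild-type replicates 1 to 3. Des and Dsp made up 74.9% to 77.0% of the members' counts in knockout hearts and 76.2% to 78.6% in wild-type hearts.

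No member passed the test of knockout against wild type. The comparison asks whether the transcripts that build the disc differ when Arrdc4 is lost. The edgeR test called 0 of the 10 members at an adjusted p under 0.05, DESeq2 and limma-voom also called 0, and each of the 3 tools gave 0 members under 0.05 unadjusted. Over all tested genes edgeR called 0.00689%, which is Arrdc4 alone, and 1.23% were under 0.05 unadjusted. Those shares were 0.0039% and 0.927% in DESeq2 and 0.00689% and 1.23% in limma-voom. Fitted values were higher in knockout for 7 members and lower for 3, where 52.3% of all tested genes were higher. The median log2 fold change of the members was 0.07, against 0.01 over all tested genes, and single members ran between -0.19 and 0.37. With 1 library left out the members' median ran from -0.11 without wild-type replicate 3 to 0.26 without knockout replicate 2, and it was also negative without knockout replicate 1 (-0.02) or knockout replicate 3 (-0.09). With knockout replicate 3 left out the count of higher members was 2, and with wild-type replicate 3 left out it was 3. A 2-fold difference lay outside the 95% interval of 9 members, all but Synm, and of 76.4% of tested genes. A 1.5-fold difference lay outside that of 3 members, Pkp2, Dsc2 and Des, and of 39.7% of tested genes. Nothing in the labels says that the hearts of a group were collected on separate days or from separate litters, so the p-values measure the spread between these hearts.

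**Figure D1:**
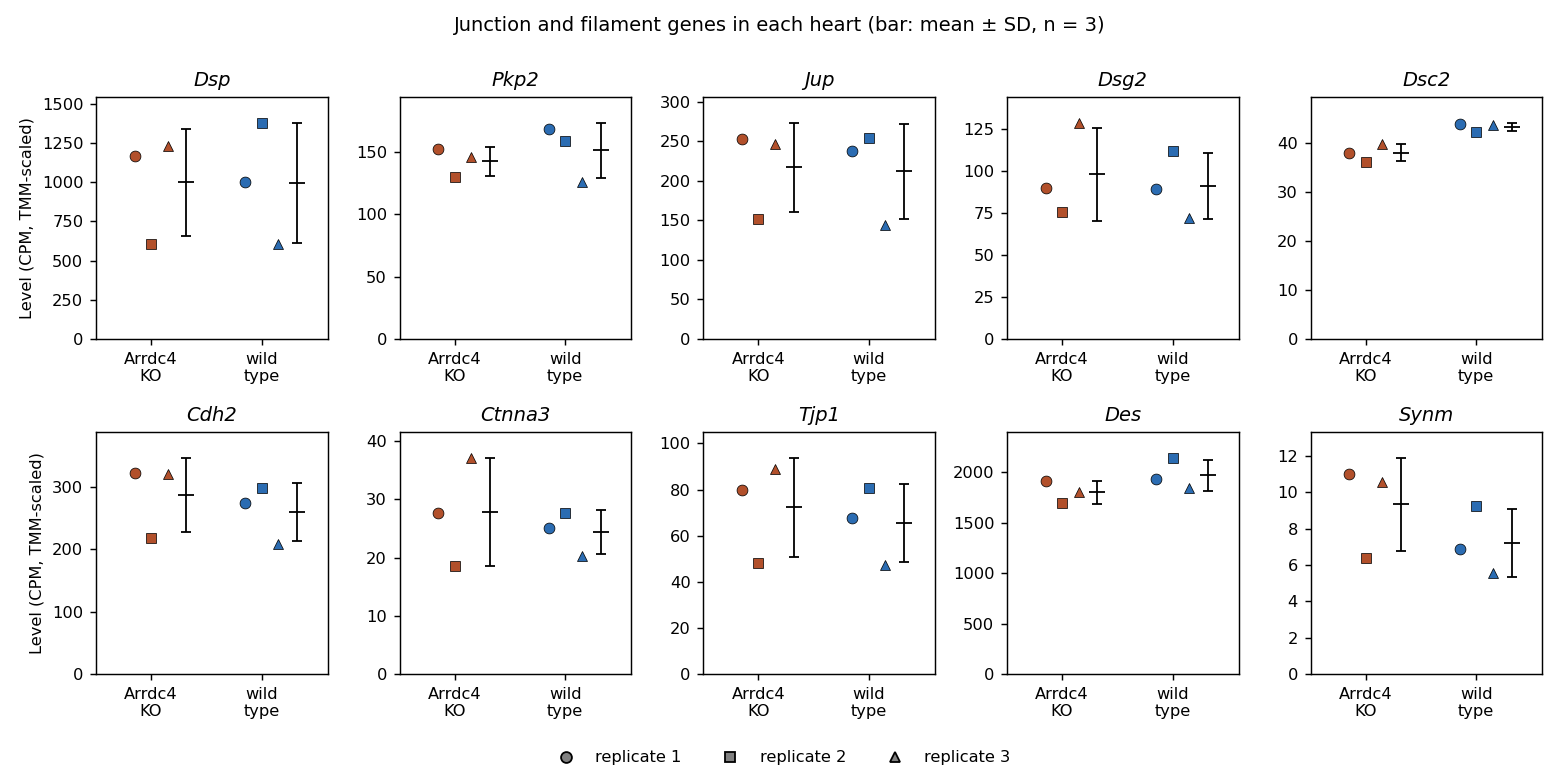
Level of each member in CPM (y axis, from 0) in each heart, with Arrdc4 knockout hearts to the left of wild-type hearts, symbols for the replicate number and bars for the mean ± SD of 3 hearts. Knockout replicate 2 and wild-type replicate 3 are the lowest pair for 8 of 10 genes, and for 29% of all tested genes. Dsc2 is the 1 gene of the 10 whose groups do not overlap, as for 4.07% of all tested genes.

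The plaque genes Dsp and Jup differed more between hearts of a genotype than between genotypes. Dsp had 1164, 607 and 1230.0 CPM in knockout replicates 1 to 3, against 999, 1378 and 607 CPM in wild-type replicates 1 to 3. The lowest heart of each group stood near the same level, and the other hearts of both groups lay well above it. The log2 fold change was 0.01 (SE 0.37, 95% interval -0.85 to 0.87), and no member had a larger SE. Jup encodes plakoglobin, the catenin that desmosome and adherens junction share. It had 253, 152 and 246 CPM in knockout replicates 1 to 3, against 238, 255 and 144 CPM in wild-type replicates 1 to 3. Each group again held 1 low heart, the same ones as for Dsp. The log2 fold change of Jup was 0.03 (SE 0.28, 95% interval -0.63 to 0.69). Pkp2 encodes plakophilin 2, an armadillo protein that recruits desmoplakin to the plaque. It had 152, 129.6 and 146 CPM in knockout replicates 1 to 3, against 169, 159 and 126 CPM in wild-type replicates 1 to 3. The wild-type values spanned the knockout values, and the log2 fold change was -0.08 (SE 0.16, 95% interval -0.46 to 0.29). With 1 library left out in turn the log2 fold change ran from -0.25 to 0.31 for Dsp, from -0.18 to 0.23 for Jup and from -0.20 to 0.0011 for Pkp2. Dsp and Jup turned negative without wild-type replicate 3, knockout replicate 1 or knockout replicate 3, and Pkp2 turned positive without wild-type replicate 1. Dsp was also negative with DESeq2's size factors (-0.0054), with DESeq2 itself (-0.0073) and with an offset for exon length (-0.06), and Jup with that offset (-0.03).

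The desmosomal cadherins gave the 1 member whose groups did not overlap, Dsc2. This gene encodes desmocollin 2 and had 38.1, 36.3 and 39.9 CPM in knockout replicates 1 to 3, against 44.0, 42.3 and 43.8 CPM in wild-type replicates 1 to 3. The highest knockout heart was below the lowest wild-type heart by a small step. Of all tested genes, 1.9% had every knockout heart below every wild-type heart, and 4.07% had groups apart in either direction. Means were 38.1 ± 1.78 CPM in knockout hearts and 43.4 ± 0.887 CPM in wild-type hearts (SD, n = 3 each). The log2 fold change was -0.19 (SE 0.12, 95% interval -0.46 to 0.09) with an unadjusted p of 0.156 and an adjusted p of 1 in edgeR, so the difference did not pass. It stayed negative in all 17 other fits, between -0.23 and -0.15, with adjusted p values of 0.653 or more. Dsg2 encodes desmoglein 2, the partner cadherin, and had 89.7, 75.4 and 129 CPM in knockout replicates 1 to 3, against 89.2, 112 and 72.2 CPM in wild-type replicates 1 to 3. Knockout replicate 3 was the highest heart and the groups overlapped, with a log2 fold change of 0.11 (SE 0.25, 95% interval -0.47 to 0.68). Leaving out knockout replicate 3 gave -0.14, and leaving out wild-type replicate 3 gave -0.04.

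The adherens junction members and the scaffold gene had slightly higher fitted values in knockout hearts, within the spread of the groups. Cdh2, which encodes N-cadherin, the classical cadherin of heart muscle, had 322, 219 and 321 CPM in knockout replicates 1 to 3, against 274, 298 and 208 CPM in wild-type replicates 1 to 3. Knockout replicates 1 and 3 lay above every wild-type heart and knockout replicate 2 below all but one. Its log2 fold change was 0.14 (SE 0.22, 95% interval -0.36 to 0.65), and it was positive in all 17 other fits (0.0046 to 0.30). Ctnna3 encodes alpha-T-catenin, an alpha-catenin of the heart that also binds plakophilin 2. It had 27.7, 18.6 and 37.1 CPM in knockout replicates 1 to 3, against 25.1, 27.7 and 20.2 CPM in wild-type replicates 1 to 3. The highest and the lowest of the 6 values were both knockout hearts, and the log2 fold change was 0.19 (SE 0.26, 95% interval -0.42 to 0.80). Without knockout replicate 3, the highest heart, it was -0.07. Tjp1 encodes ZO-1, a scaffold at the edge of gap junctions, and had 80.0, 48.2 and 88.8 CPM in knockout replicates 1 to 3, against 67.8, 80.9 and 47.4 CPM in wild-type replicates 1 to 3. The groups overlapped, with a log2 fold change of 0.15 (SE 0.28, 95% interval -0.51 to 0.80). Leaving out wild-type replicate 3 gave -0.04, and leaving out knockout replicate 3 gave -0.03.

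Of the filament genes, Des varied little and Synm had the largest fitted log2 fold change of the 10 members. Des had 1915, 1691 and 1799 CPM in knockout replicates 1 to 3, against 1929.6, 2140.0 and 1842 CPM in wild-type replicates 1 to 3. Knockout replicates 2 and 3 were the lowest hearts, knockout replicate 1 lay within the wild-type range, and the log2 fold change was -0.13 (SE 0.15, 95% interval -0.49 to 0.23). With 1 library left out it ran from -0.18 to -0.07, and it was closest to 0 without wild-type replicate 2. Synm encodes synemin, a large intermediate filament protein that assembles with desmin. It rested on 472, 186 and 404 reads in knockout replicates 1 to 3 and on 217, 347 and 186 reads in wild-type replicates 1 to 3. Its levels were 11.0, 6.41 and 10.6 CPM in knockout replicates 1 to 3, against 6.87, 9.24 and 5.55 CPM in wild-type replicates 1 to 3. Knockout replicates 1 and 3 exceeded every wild-type heart, while knockout replicate 2 lay below wild-type replicates 1 and 2. Means were 9.33 ± 2.54 CPM in knockout hearts and 7.22 ± 1.87 CPM in wild-type hearts (SD, n = 3 each), and the log2 fold change was 0.37 (SE 0.27, 95% interval -0.27 to 1.01) with an unadjusted p of 0.214 and an adjusted p of 1 in edgeR. It was positive in all 17 other fits, between 0.21 and 0.59, and the smallest adjusted p among them was 0.613.

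**Figure D2:**
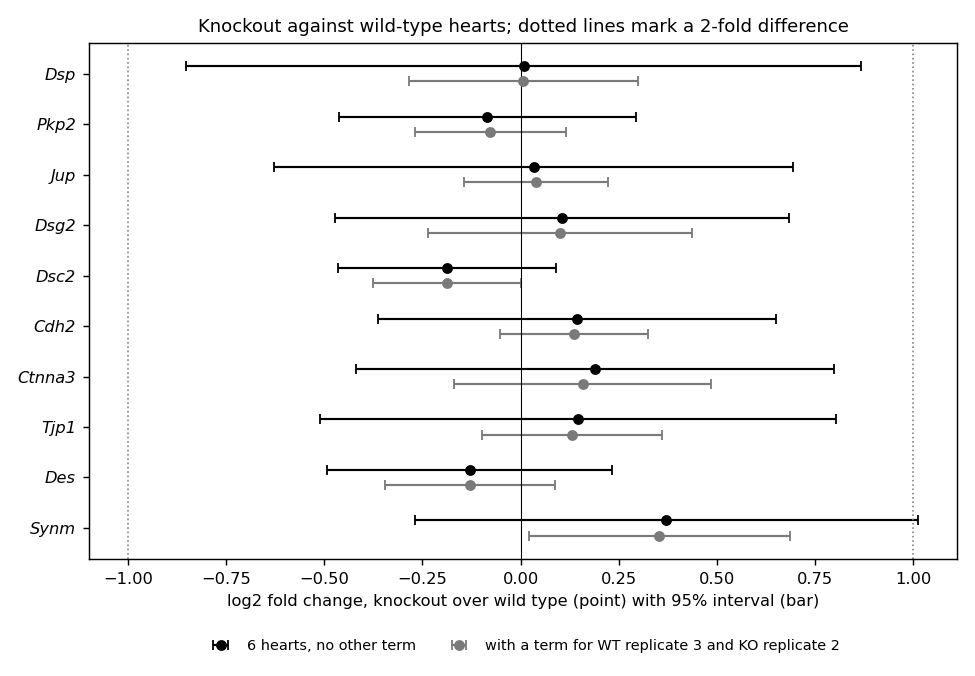
Log2 fold change of each member, knockout over wild type (x axis), with its 95% interval, from the fit of 6 hearts (black) and from a fit with a separate term for wild-type replicate 3 and knockout replicate 2 (grey). In the black fit all 10 intervals include 0, and dotted lines mark a 2-fold difference.

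Knockout replicate 2 and wild-type replicate 3 were the 2 lowest hearts for 8 of the 10 members, all but Dsc2 and Des. The same 2 hearts were lowest for 29% of all tested genes. On the log2 scale, relative to each gene's mean over the 6 hearts, the median member stood at -0.31 in knockout replicate 2 and at -0.37 in wild-type replicate 3. It stood at 0.19 and 0.31 in knockout replicates 1 and 3 and at 0.03 and 0.20 in wild-type replicates 1 and 2. All 10 members were below their own mean in knockout replicate 2, and 9 were so in wild-type replicate 3, where Dsc2 was the exception at 0.11. Dsp departed most, at -0.64 in each of these 2 hearts, which carry different genotypes. The highest over the lowest heart gave a 2.27-fold range for Dsp, 2.0-fold for Ctnna3 and 1.98-fold for Synm, and 1.21-fold for Dsc2, 1.27-fold for Des and 1.34-fold for Pkp2.

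The members with the narrowest range between hearts were those with the shortest exons. Exon length was 3754 bp for Des, 5277 bp for Dsc2 and 5360 bp for Pkp2, and 6436 to 9659 bp for the other 7 members. Across the 10 members, the deviation in a heart and exon length gave Spearman's rho of -0.61 in knockout replicate 2 and -0.70 in wild-type replicate 3. The same value was 0.48 and 0.67 in knockout replicates 1 and 3 and -0.49 and 0.56 in wild-type replicates 1 and 2. These 6 correlations run across genes, which share libraries and are not independent replicates, and they are a description. Over all tested genes with a known length, log2 levels changed per doubling of exon length by -0.14 in knockout replicate 2 and by -0.15 in wild-type replicate 3, and by 0.01 to 0.10 in the other 4 hearts. At the members' lengths a smooth trend fitted to all tested genes ran from -0.20 to -0.01 in knockout replicate 2 and from -0.20 to 0.0041 in wild-type replicate 3. After subtraction of that trend the median member still stood at -0.15 in knockout replicate 2 and at -0.19 in wild-type replicate 3, and Dsp at -0.44 in both. Of the 10 heart muscle markers, 3 (Myh6, Ryr2 and Ttn) had these 2 hearts lowest, 6 (Mb, Myl2, Myl3, Tnni3, Pln and Tnnt2) had them highest, and Actc1 had neither. Exon length was 7752 bp for Tnnt2, 6726 bp for Myh6 and 1618 bp for Actc1. These lengths are unions over all annotated transcripts, of which Tnnt2 has 15, and can exceed the length of the main transcript. Tnnt2 was highest in these 2 hearts by a small step, with 7086 CPM in knockout replicate 2 against 7067 CPM in wild-type replicate 1. Myh6, a myosin heavy chain gene, had 22899.5, 9167 and 29523 CPM in knockout replicates 1 to 3, against 17169, 26859 and 10042 CPM in wild-type replicates 1 to 3. Myl2, a myosin light chain gene, had 5054, 11846 and 6751 CPM in knockout replicates 1 to 3, against 7438, 6088 and 11698 CPM in wild-type replicates 1 to 3. All of these markers were named here after their values were seen. In an edgeR fit with an offset for exon length, the SE was smaller for all 10 members. It was 0.26 for Dsp, against 0.37 without the offset, and 0.112 for Dsc2, against 0.118. The offset was estimated from these same libraries. The part of exon length or RNA quality in the members' pattern was not tested beyond these values.

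**Figure D3:**
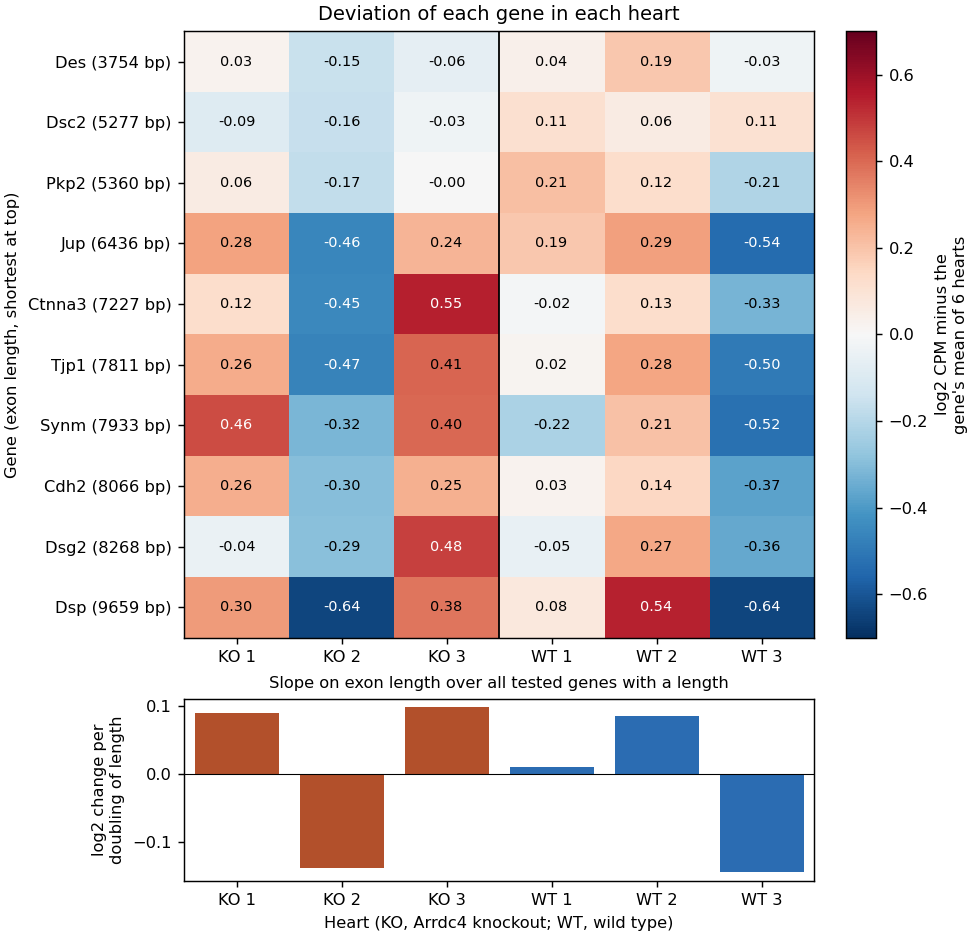
Upper panel: log2 CPM of each member minus its mean over 6 hearts, with genes ordered by exon length from the shortest at the top and knockout hearts left of wild-type hearts. Lower panel: change in log2 level per doubling of exon length over all tested genes with a length, which is -0.14 in knockout replicate 2, -0.15 in wild-type replicate 3 and above 0 in the other 4 hearts.

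With a separate term for these 2 hearts the members' intervals narrowed. The term holds a heart of each genotype, so by design it could move the fold changes little. It was added after these hearts were seen to stand apart in the same data. The smaller SEs and p values below follow in part from that choice. The SE of Dsp was 0.13 in that fit, against 0.37 without the term, and its log2 fold change was 0.01. That of Jup was 0.04 (SE 0.08, 95% interval -0.14 to 0.22). Synm stood at 0.35 (SE 0.14) with an unadjusted p of 0.0399, and Dsc2 at -0.19 (SE 0.08) with an unadjusted p of 0.0499 in edgeR. In this fit 4.3% of all tested genes were under 0.05 unadjusted, the adjusted p of both genes was 0.940, and 0 members were called, against 0.00689% of all genes. With both hearts left out, Synm had a log2 fold change of 0.41 (SE 0.18), Ctnna3 of 0.28 (SE 0.17), Dsc2 of -0.16 (SE 0.11) and Dsp of 0.00096 (SE 0.18). The smallest adjusted p of a member there was 0.753 in edgeR.

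Ratios within a heart, which do not depend on scaling between libraries, did not separate the genotypes. They were formed from RPKM for 6 pairs of relatives or partners, and an exact two-sided permutation test over 6 hearts cannot go below p = 0.1. Dsc2 over Dsg2, the pair of desmosomal cadherins, was 0.666, 0.754 and 0.485 in knockout replicates 1 to 3, against 0.772, 0.595 and 0.951 in wild-type replicates 1 to 3. The groups overlapped, and the mean log2 ratio differed by -0.28, knockout minus wild type (exact permutation p = 0.4). Leaving out knockout replicate 3 made that difference -0.10, leaving out wild-type replicate 3 made it -0.12, and leaving out wild-type replicate 2 made it -0.46. Synm over Des, the filament pair, was 0.00272, 0.00179 and 0.00278 in knockout replicates 1 to 3, against 0.00168, 0.00204 and 0.00143 in wild-type replicates 1 to 3. Knockout replicates 1 and 3 had the highest ratios, and the log2 difference was 0.49 (exact permutation p = 0.2). Within their groups, knockout replicate 2 and wild-type replicate 3 had the lowest Synm over Des and the highest Dsc2 over Dsg2. Exon lengths were 7933 and 3754 bp for Synm and Des, and 5277 and 8268 bp for Dsc2 and Dsg2. A ratio of genes of unlike length can carry a change of level with length, and its part was not tested. Jup over Ctnnb1, plakoglobin against beta-catenin, was 0.656, 0.423 and 0.627 in knockout replicates 1 to 3, against 0.605, 0.628 and 0.415 in wild-type replicates 1 to 3. Beta-catenin transcripts exceeded plakoglobin transcripts per length in all 6 hearts, and most in knockout replicate 2 and wild-type replicate 3. Ctnna3 over Ctnna1, alpha-T-catenin against alpha-E-catenin, was 0.0481, 0.0548 and 0.0557 in knockout replicates 1 to 3, against 0.05, 0.0471 and 0.0575 in wild-type replicates 1 to 3. This was the steadiest ratio of the 6, with a 1.22-fold range over 6 hearts, while each of its genes ranged more widely. Ctnna1 had 511, 301 and 592 CPM in knockout replicates 1 to 3, against 447, 524 and 313 CPM in wild-type replicates 1 to 3. Pkp2 exceeded its relative Pkp4 by 1.2-fold to 1.78-fold. Cdh2 over Cdh5, the endothelial cadherin, ran from 1.09 to 2.24 in knockout hearts and from 1.05 to 2.10 in wild-type hearts, with knockout replicate 2 and wild-type replicate 3 highest. The log2 differences of Jup over Ctnnb1, Pkp2 over Pkp4, Ctnna3 over Ctnna1 and Cdh2 over Cdh5 lay between -0.08 and 0.05, with exact permutation p values of 0.6 to 1. Adjusted over the 6 pairs every p was 1.

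**Figure D4:**
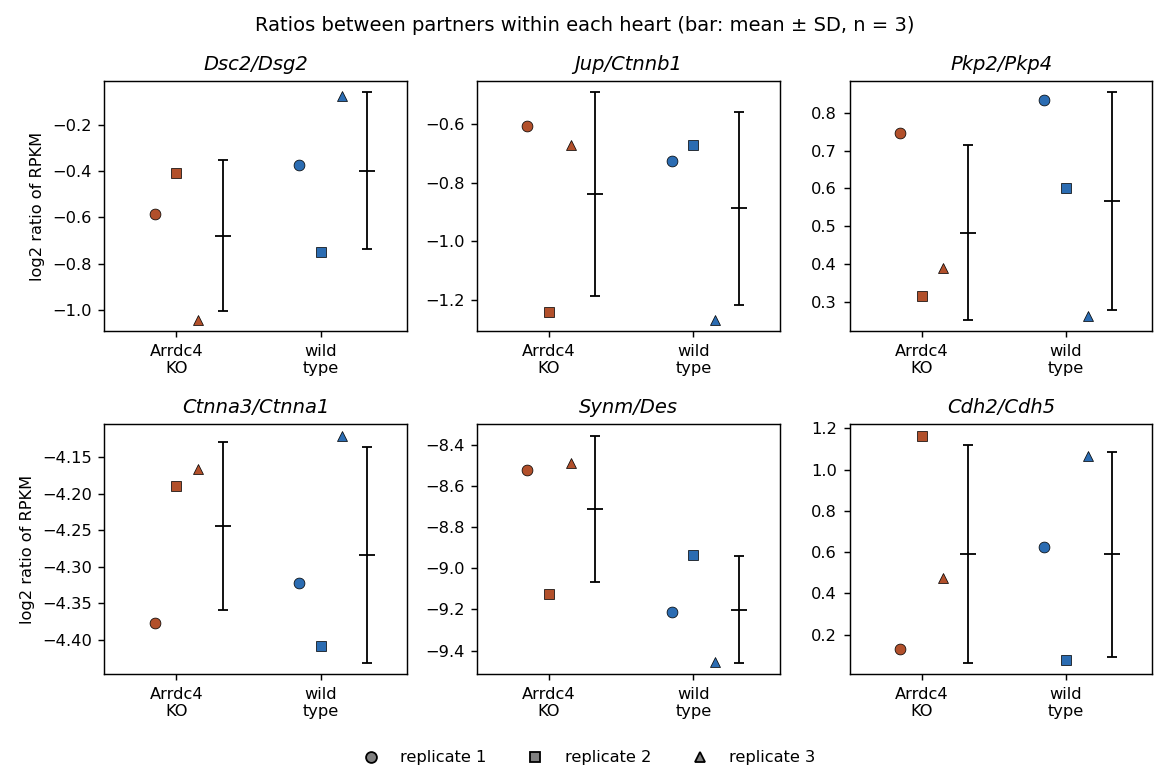
Log2 ratio of RPKM between 6 pairs of genes (y axis, one scale per panel) in each heart, with knockout hearts left of wild-type hearts and bars for the mean ± SD of 3 hearts. The groups overlap in all 6 panels, and Dsc2 over Dsg2 and Synm over Des show the largest differences of group means, at -0.28 and 0.49.

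The members' mean log2 CPM minus that of the 10 cardiomyocyte markers was -5.29, -5.88 and -5.41 in knockout replicates 1 to 3, against -5.40, -5.38 and -5.90 in wild-type replicates 1 to 3. The group means differed by 0.04 (exact permutation p = 0.8), and the low heart of each group was again knockout replicate 2 or wild-type replicate 3. In RNA of heart tissue, fewer cells of a type and less RNA per cell cannot be told apart.

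Genes of other disc proteins and of filament partners gave no call either. Of 20 partners of the adherens junction and its heart form, the area composita, 0 passed in edgeR, 12 had higher and 8 lower fitted values in knockout, and the median log2 fold change was 0.01. The 2 with the smallest p were Arvcf, a p120-family catenin (-0.12, SE 0.15), and Nectin2, an adhesion molecule (-0.12, SE 0.17). For 18 of these 20 genes, too, knockout replicate 2 and wild-type replicate 3 were the 2 lowest hearts, against 29% of all tested genes. Vcl, which encodes the actin linker vinculin and is named here after its values were seen, had 66.9, 29.7 and 74.8 CPM in knockout replicates 1 to 3, against 60.6, 65.6 and 29.3 CPM in wild-type replicates 1 to 3. Of 10 gap junction and channel genes 9 were tested and 0 passed, with 8 higher, 1 lower and a median of 0.12. Knockout replicate 2 and wild-type replicate 3 were the 2 lowest hearts for 3 of these 9 genes. The smallest p belonged to the connexin genes Gjc1 (0.17, SE 0.13) and Gja5 (0.20, SE 0.21). Of 12 filament partners 0 passed, with 9 higher, 3 lower and a median of 0.14, and the same 2 hearts were lowest for 8. Vim, the filament protein of non-muscle cells, stood at 0.51, SE 0.30, and Nes, nestin, at 0.64, SE 0.38. Vim had 256, 106 and 165 CPM in knockout replicates 1 to 3, against 128, 133 and 109 CPM in wild-type replicates 1 to 3. Knockout replicate 1 was its highest heart, as for the sums of fibroblast, endothelial, epicardial and mesothelial, and leukocyte markers. It was not the highest for those of heart muscle, smooth muscle and pericytes, skeletal muscle or surface epithelium.

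Most relatives of the members that serve surface epithelia had few or no reads in these hearts. Of 13 epithelial desmosome genes 3 (Perp, Evpl and Ppl) had enough reads to be tested, 0 passed in edgeR, and Dsg1b and Pkp1 had 0 reads in all 6 libraries. With 0 reads, up to 3 reads per library cannot be told from none, for counting error only. Perp, a membrane protein of desmosomes, had the most reads of these, with 116, 160.2 and 103 CPM in knockout replicates 1 to 3, against 135, 124 and 183 CPM in wild-type replicates 1 to 3 (log2 fold change -0.23, SE 0.23). Ppl, periplakin, had 5.92, 0.965 and 7.49 CPM in knockout replicates 1 to 3, against 3.99, 6.50 and 2.72 CPM in wild-type replicates 1 to 3 (log2 fold change 0.13, SE 0.65), on 28 to 286 reads per library. Knockout replicate 2 and wild-type replicate 3 were the lowest hearts for Ppl and the highest for Perp. Evpl, envoplakin, stood at 0.34, SE 0.44 with a mean of 0.436 CPM in knockout hearts and 0.35 CPM in wild-type hearts.

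Sums of markers of other cells differed between hearts, and only some lists were low where the members were low. Knockout replicate 2 and wild-type replicate 3, the hearts where the members were low, also had the lowest sums of fibroblast markers (411 and 496 CPM, against 544 to 1174 CPM in the other 4 hearts) and of endothelial markers (282 and 295 CPM, against 400.5 to 618 CPM). They were the 2 lowest hearts for 4 of 7 fibroblast and 4 of 6 endothelial markers, and for 29% of all tested genes. The 7 fibroblast markers summed to 411 to 1174 CPM in knockout hearts and 496 to 744 CPM in wild-type hearts, with 6 of 7 higher in the fit and none at 0. The 7 epicardial and mesothelial markers summed to 3.20 to 30.9 CPM in knockout hearts and 4.45 to 11.5 CPM in wild-type hearts, with 7 of 7 higher. The 6 endothelial markers summed to 282 to 618 CPM in knockout hearts and 295 to 552 CPM in wild-type hearts, and the 6 smooth muscle and pericyte markers to 636 to 738 CPM in knockout hearts and 557 to 812 CPM in wild-type hearts. Wild-type replicate 3 had the highest smooth muscle and pericyte sum, and knockout replicate 2 had 696 CPM. The 6 leukocyte markers summed to 135 to 245 CPM in knockout hearts and 167 to 228 CPM in wild-type hearts, where wild-type replicate 3 was the highest of its group. Skeletal muscle markers summed to 0.896 to 1.02 CPM in knockout hearts and 0.879 to 1.40 CPM in wild-type hearts, with Myh4 at 0 reads throughout. The 4 markers of surface epithelium summed to 0.886 to 2.03 CPM in knockout hearts and 0.0316 to 1.40 CPM in wild-type hearts. The 2 highest of these sums were those of knockout replicate 2 (2.03 CPM) and wild-type replicate 3 (1.40 CPM). Of these lists, 5 of 6 leukocyte, 1 of 5 skeletal muscle and 1 of 4 surface epithelium markers had enough reads to be tested. All markers of the other lists were tested, and none of the tested markers passed. The fibroblast marker Lum, named here after its values were seen, had an unadjusted p of 0.0170 in edgeR. Of all tested genes, 1.23% were under 0.05 unadjusted. The part of these markers in the members' values was not tested.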

How the data were processed

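RNA of 6 mouse hearts, 3 with an ARRDC4 knock-out and 3 wild type, was purified on RNeasy columns and made into NEBNext Ultra II libraries, per the labels' protocols. The authors deposited whole-number read counts per gene and heart, with no scaling. The submitters' processing notes list GRCm38.p6 as build and STAR, featureCounts, Subread 1.5.2 and DESeq2 as tools, and do not say which did what. The sources used here give neither the annotation release nor the strand setting nor how shared reads were treated.

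Of 49315 identifiers 48970 matched a symbol. Coordinates and exon lengths (the union of annotated exons) came from GENCODE M21 on GRCm38, and 99.8% of tested genes had a length. Genes were kept by filterByExpr (minimum count 10, minimum total 15), scaled by TMM, and tested with edgeR 4.0.16 (quasi-likelihood F test, R 4.3.3) across 14508 genes, with Benjamini-Hochberg adjustment and a threshold of 0.05. CPM and RPKM were computed from the counts. Standard errors and 95% intervals came from the fitted model, whose biological coefficient of variation was 24.2%. Deviations used log2 CPM with a prior count of 2. DESeq2 1.42.0 and limma 3.58.1 (voom) were alternatives. The test was tried on simulated data first.

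Members and gene lists were chosen with earlier results of these data known. Named genes are the members, their ratio partners and Arrdc4. From each list of disc partners, filament partners and epithelial desmosome genes, up to 4 past the threshold or the 2 with the smallest p are named. Others are said to be chosen after their values were seen. Ratios were tested with exact permutation tests, and 1 further planned ratio is not reported here. Every pair of libraries differed by more than sampling noise; the chi-square over its degrees of freedom was 7.77 for knockout replicate 2 with wild-type replicate 3 and at least 26.9 for the others. Reads carry no molecular identifiers, so counting limits cover counting error only.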

Additional observations from a re-analysis of the deposited data

How the results depend on the processing

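Fold changes and counts of calls were recomputed in 17 other fits. Ratios and the level relative to cardiomyocyte markers had 8 other settings: 1 library left out in turn, both hearts that stand apart left out, and 1 other scaling. Among the fits, the one with a term for wild-type replicate 3 and knockout replicate 2 was added after seeing the data. No member was called in any of the 17. The number of genes called was 1 with all 6 hearts, 0 with the replicate block, 0 to 1 with 1 library left out, and 2 with wild-type replicate 3 and knockout replicate 2 left out, Arrdc4 and Spp1; the cause was not tested. Arrdc4 had a log2 fold change of -7.00 and an adjusted p of 0.0507 in edgeR with the replicate block, and -7.58 to -6.68 with 1 library left out. The labels do not say that hearts were paired, and the numbers were not read as pairs. Deviations of same-numbered hearts from their group means correlated at 0.18, -0.65 and -0.40 for numbers 1 to 3. Knockout replicate 2 correlated best with wild-type replicate 3 (0.68). With 1 heart standing apart in each group, these correlations cannot show whether hearts were paired. The block took the genes under 0.05 unadjusted to 72, against 179 without it. Leaving out knockout replicate 2 took them to 1126 and leaving out both hearts to 981.

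Dsp turned to -0.0054 with DESeq2's size factors, -0.0073 with DESeq2 and -0.058 with the exon length offset, and Jup to -0.026 with that offset. With 1 library left out the log2 fold change ran from -0.25 to 0.31 for Dsp, -0.18 to 0.23 for Jup, -0.20 to 0.0011 for Pkp2, -0.14 to 0.28 for Dsg2, -0.075 to 0.41 for Ctnna3 and -0.040 to 0.37 for Tjp1, and the number of higher members from 2 to 8. Log2 differences of ratios ran from -0.14 to 0.25 for Jup over Ctnnb1, -0.24 to 0.05 for Pkp2 over Pkp4, -0.023 to 0.12 for Ctnna3 over Ctnna1 and -0.29 to 0.24 for Cdh2 over Cdh5, which was -0.048 with both hearts left out, and kept their sign for Dsc2 over Dsg2 (-0.46 to -0.098) and Synm over Des (0.36 to 0.69). The members relative to cardiomyocyte markers ran from -0.14 to 0.21. Dsc2, Des, Cdh2 and Synm kept their direction in all 17 fits. Depth limits Synm most, with 186 reads in its lowest library, where every other member had at least 539.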
